A study of Mus musculus with 12 samples.

Results

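The members described here were 41 mouse genes that encode regulators of heterochromatin and Polycomb repression, measured in thymus across the genotypes of a study of sex chromosome complement. They were found by gene symbol in the platform's probe gene table, and each was read from the probe set (a group of probes for 1 transcript) with the highest mean over the 12 arrays. All 41 of 41 genes had such a probe set, and all 41 passed the filter on low values, a mean log2 value of at least 5. The tested data held 9496 genes with a probe set of their own. The members lay on 15 chromosomes, with 0 on X or Y.

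Thymus was taken from mice aged 7 to 8 weeks, and its total RNA was hybridised to 12 arrays, 3 biological replicates in each of 4 groups. The groups were XX females, XXsry males, XY- females and XY-sry males. In mouse crosses of this kind the Y chromosome marked with a minus lacks the testis-determining gene Sry, and Sry is supplied as a transgene, so that gonadal sex and chromosome complement vary separately. The labels used here give no strain, no transgene promoter or insertion site, and no treatment other than killing and dissection. The question that the study's title names is whether the complement affects autosomal genes, so the 41 autosomal members bear on it. Since gonadal sex here is set by the transgene, effects of gonads and hormones and effects of Sry itself cannot be told apart.

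Heterochromatin is the compact, mostly silent form of chromatin. It is marked by methylation of lysine 9 on histone H3, which HP1 proteins bind and which dedicated methyltransferases write. Polycomb repression acts at developmental genes through PRC2, which methylates lysine 27 of histone H3, and PRC1, which ubiquitinates histone H2A and compacts chromatin. Histone demethylases of the Kdm families remove such marks or the opposing ones. In thymus these regulators are known for holding lineage programmes silent while T cell precursors divide and mature.

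The labels were checked first, since each group's genotype can be read from genes outside the list. Xist, the RNA made from the inactive X chromosome, lay at log2 values of 11.10 to 11.63 on the XX and XXsry arrays and 3.41 to 4.19 on the XY- and XY-sry arrays. The Y-linked demethylase gene Kdm5d lay at 6.22 to 6.87 on the XY- and XY-sry arrays and at 1.84 to 2.18 on the others. Sry lay at 6.74 to 7.20 in males and 5.23 to 5.65 in females, so all 12 arrays followed their labels. The thymocyte markers Cd3e, Cd4, Cd8a, Rag1 and Ptcra passed the filter on low values, with Cd8a at 11.25 to 11.52 and Ptcra at 6.37 to 7.01 over the 12 arrays. Array medians lay between 4.02 and 4.10. XY- replicate 2 stood apart from the rest, with a standard deviation of 0.162 around its group's means over the tested probe sets, against 0.073 to 0.130 on the other arrays. The actin 3' minus 5' difference, a measure of RNA integrity, was 0.51 to 0.69 in XY- females and 0.74 to 0.83 in XY-sry males, and it overlapped between the XX and XXsry groups. With it as a covariate, the share of all probe sets called within XY was 0.301%, against 8.64% without. Since the XY- and XY-sry arrays did not overlap in the actin difference, it cannot be told apart from gonadal sex within XY. In bulk thymus, fewer cells of a type and less RNA per cell cannot be told apart.

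Most members did not differ detectably between the groups. For gonadal sex, the mean of both male groups minus the mean of both female groups, 2 of 41 members passed, with Kdm5b lower in males and Baz1b higher in males (limma, Benjamini-Hochberg adjusted p under 0.05). Over all probe sets the share passing was 6.56%, 3.95% higher and 2.61% lower in males, so the members' 1 in each direction lay near that background. In 0 of 41 members did all 6 males lie above or below all 6 females, against 2.28% and 1.21% of all probe sets. An unadjusted p under 0.05 was reached by 9 members, 8 of them higher in males, and by 24.9% of all probe sets. The members' median difference was 0.017, equal to the median of 0.017 over all probe sets. Of the members, 25 lay above zero, where 57.6% of all probe sets did. The 95% interval of the difference lay within 0.5 log2 units of zero for 41 of 41 members and within 0.25 for 30, where 95.8% and 70.1% of all probe sets met these bounds.

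Markers of other cell types differed with gonadal sex in the same arrays. Both tested parathyroid markers were higher in males, Pth by 1.02 and Chga by 0.63 (limma adjusted p = 0.00838 and 0.0113), and the list's mean level was 4.95 to 5.5 in XX, 6.32 to 6.47 in XXsry, 5.61 to 5.90 in XY- and 5.88 to 6.75 in XY-sry. Of 3 tested B cell markers, Ms4a1 was lower in males (-0.59, limma adjusted p = 0.021), and that list's level was 5.77 to 5.84 in XX, 5.36 to 5.77 in XXsry, 5.62 to 5.81 in XY- and 5.32 to 5.39 in XY-sry. Of 8 tested thymocyte markers, Rag2 was lower at -0.19 (limma adjusted p = 0.0223), at list levels between 10.02 and 10.16 in all groups. Of 6 thymic epithelium, 4 myeloid and 2 fat markers tested, 0 passed. Among the myeloid markers S100a8 stood at -1.33 (limma adjusted p = 0.0597) and S100a9 at -1.4 (0.0834), and that list's level was 8.51 to 9.16 in XX, 7.52 to 8.64 in XXsry, 8.68 to 9.53 in XY- and 7.82 to 8.66 in XY-sry. The part of these cells in the members' differences was not tested.

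**Figure D1:**
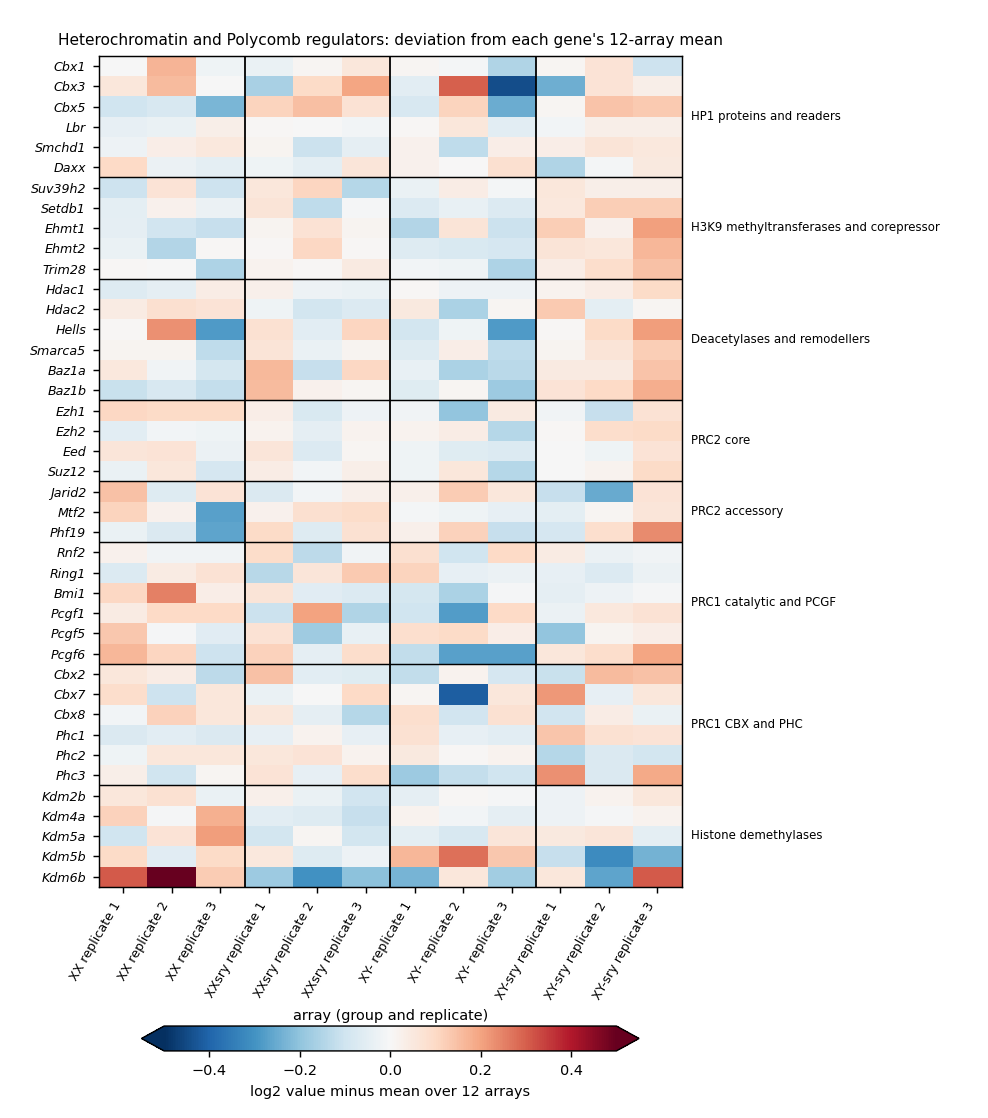
Each row is 1 of the 41 members and each column 1 of the 12 arrays, grouped by genotype. Colour gives the log2 value minus that gene's mean over the 12 arrays (red higher, blue lower), and lines separate the groups and the 8 role groups. Most rows show small deviations of mixed sign within each group, and the bottom 2 rows, Kdm5b and Kdm6b, hold the widest ranges among the demethylases.

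Kdm5b encodes a demethylase of lysine 4 on histone H3, a mark of active promoters. Its values were 7.23, 7.08 and 7.23 in XX females and 7.19, 7.07 and 7.11 in XXsry males. They were 7.30, 7.41 and 7.27 in XY- females and 7.02, 6.82 and 6.90 in XY-sry males. The XY-sry males held the 3 lowest values and the XY- females the 3 highest, and the XX and XXsry groups overlapped between them. Over both complements the difference was -0.235 ± 0.0487 (standard error; limma adjusted p = 0.0189), a percent difference of -15.0%. Within the XY complement the male minus female difference was -0.413 ± 0.0688 (adjusted p = 0.00725), a percent difference of -24.9%, against -0.057 in XX (not past the threshold). The test of the difference between those 2 effects gave -0.36 ± 0.097 and did not pass (adjusted p = 0.111). With the actin difference as a covariate the overall adjusted p was 0.0532 and the value within XY had an adjusted p of 0.0939, at differences of -0.24 and -0.423. With only the 2 groups compared the value within XY had an adjusted p of 0.0613. Kdm5b passed in 20 of 21 alternatives overall and in 20 of 22 within XY, and it passed without each array in turn. Its other 3 probe sets lay below the filter, at means of 4.94, 4.41 and 3.34, and in the fit without a filter they differed by -0.215, -0.01 and -0.187 and did not pass.

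Baz1b encodes a bromodomain protein that acts with the remodelling ATPase Smarca5 at replicating chromatin. Its values were 9.02, 9.05 and 9.01 in XX females and 9.29, 9.15 and 9.14 in XXsry males, with no overlap between the groups. They were 9.07, 9.14 and 8.95 in XY- females and 9.20, 9.23 and 9.31 in XY-sry males, again with no overlap. Across all 6 males and 6 females the ranges met at 9.14, so they overlapped. The difference over both complements was 0.18 ± 0.044 (limma adjusted p = 0.0353), a percent difference of 13.3%. This result rested on small margins. It was lost when any 1 array but XY- replicate 2 was left out (adjusted p from 0.0525 to 0.0861 without the other 11), with no filter on low values (0.0995) and with the mean over its probe sets (0.119). It passed in 8 of 21 alternatives, which ranged from 0.152 to 0.229. Its second tested probe set differed by 0.12 and did not pass.

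**Figure D2:**
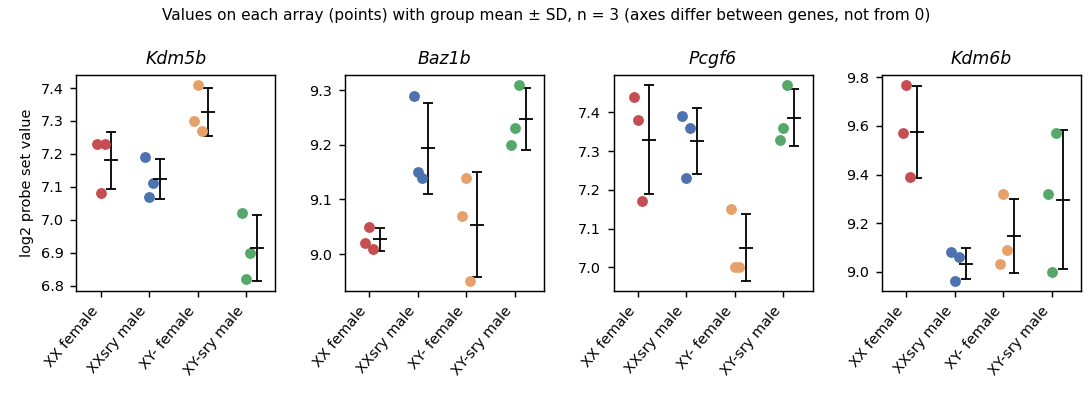
Each panel shows 1 gene, with the log2 value on each array as a point and the group mean ± SD beside it (n = 3). Axes differ between panels and do not start at 0. Kdm5b is lowest in XY-sry males, Baz1b sits higher in both male groups, Pcgf6 is lowest in XY- females, and Kdm6b is highest in XX females.

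Within the XY complement alone, 2 of 41 members passed, Kdm5b and Pcgf6 (8.64% of all probe sets passed there, 4.27% higher and 4.37% lower). That share was 0.301% with the actin covariate and 0.402% with only the 2 XY groups fitted, and 0 of 41 members passed in either. An unadjusted p under 0.05 was reached by 10 members and by 26.1% of all probe sets. Pcgf6, a subunit that defines a non-canonical form of PRC1 at germline genes, had values of 7.15, 7.00 and 7.00 in XY- females and 7.33, 7.36 and 7.47 in XY-sry males. The groups did not overlap, and the difference was 0.34 ± 0.079 (limma adjusted p = 0.0246). In XX females it had 7.44, 7.38 and 7.17, and in XXsry males 7.39, 7.23 and 7.36, a difference near zero. Over both complements it was 0.17 (adjusted p = 0.0951). The probe sets for Pcgf6 disagreed. Its second tested probe set gave -0.26 in XY (adjusted p = 0.099), and another below the filter gave -0.337 in the fit without one. The mean over its 2 tested probe sets was 0.0383 (adjusted p = 0.79). Leaving out XY-sry replicate 1 (adjusted p = 0.0563), XY-sry replicate 3 (0.0966), XY- replicate 2 (0.0569) or XY- replicate 3 (0.0583) also ended the call, as did no filter (0.0532), only the groups compared (0.0742) and the actin covariate (0.166). It passed in 14 of 22 alternatives.

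The starts of these 3 genes are shown because they carry the calls, although no value here bears on what binds them. The sequences are RefSeq promoters of GRCm38.p6 on each gene's own strand, the 250 bases before the start site, with capitals marking the motif letters found.
Kdm5b: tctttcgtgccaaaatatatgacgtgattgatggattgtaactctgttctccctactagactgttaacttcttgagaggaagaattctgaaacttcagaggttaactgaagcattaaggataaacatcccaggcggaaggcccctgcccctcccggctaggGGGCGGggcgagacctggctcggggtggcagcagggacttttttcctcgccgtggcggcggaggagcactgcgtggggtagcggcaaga
Baz1b: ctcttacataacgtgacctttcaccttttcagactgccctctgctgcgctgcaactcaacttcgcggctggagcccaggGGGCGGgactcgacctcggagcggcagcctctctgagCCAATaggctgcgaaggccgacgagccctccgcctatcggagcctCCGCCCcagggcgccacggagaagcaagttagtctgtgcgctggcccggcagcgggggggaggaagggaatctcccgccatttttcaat
Pcgf6: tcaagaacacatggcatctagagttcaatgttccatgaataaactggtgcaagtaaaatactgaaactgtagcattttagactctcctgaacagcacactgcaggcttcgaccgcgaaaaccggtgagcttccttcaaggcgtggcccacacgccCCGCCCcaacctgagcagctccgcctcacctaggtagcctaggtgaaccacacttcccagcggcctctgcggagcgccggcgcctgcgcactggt
The windows lay at chr1:134559928-134560177 on the plus strand, chr5:135187073-135187322 on the plus strand and chr19:47050907-47051156 on the minus strand. The motifs searched were GGGCGG, an Sp1-type GC box, CCAAT, and TTTNNCGC, a match to one form of the E2F site, on both strands and with overlaps counted. Kdm5b held a GGGCGG at position -89 from the start site. Baz1b held a GGGCGG at -171 and another on the other strand at -89, with CCAAT at -134, and Pcgf6 held a GGGCGG on the other strand at -95. Promoter windows were found for 35 of the 41 members, 49 windows in all, and 79.6% of them held GGGCGG, against 32.7% of all 32851 windows. CCAAT was found in 34.7% of member windows and 33.8% of all, and TTTNNCGC in 10.2% and 4.3%. Member windows held a median of 23 CpG dinucleotides, against 6 over all windows. The genes themselves span bases 134560178 to 134632878 of chromosome 1 (Kdm5b), 135187323 to 135246131 of chromosome 5 (Baz1b) and 47033617 to 47050939 of chromosome 19 (Pcgf6), so the Pcgf6 window, set by an internal start, reaches into the outermost bases of its gene. A match marks letters only, and whether a protein binds there was not measured.

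Among HP1 proteins and readers, Cbx5, the HP1 alpha protein, stood highest for gonadal sex at 0.207 ± 0.0588, but its adjusted p of 0.0582 did not pass. Its values were 9.03, 9.05 and 8.90 in XX females and 9.24, 9.28 and 9.20 in XXsry males, without overlap, at a difference of 0.25 within XX that did not pass (adjusted p = 0.252). In XY- females they were 9.05, 9.24 and 8.88, and in XY-sry males 9.14, 9.27 and 9.26. Cbx5 passed in 7 of 21 alternatives, among them median centring (adjusted p = 0.0372), but its mean over probe sets was 0.0728. The other 5 genes of the group ranged from -0.04 to 0.01. Lbr, which anchors heterochromatin to the inner nuclear membrane, had the narrowest range of all members, 0.11 over the 12 arrays.

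The genes of H3K9 methylation, methyltransferases and a corepressor, lay in 5 of 5 cases above zero for gonadal sex at the probe sets used. Of all probe sets, 57.6% did. The genes ranged from 0.047 for Suv39h2, near the filter at a mean of 5.01, to 0.15 for Ehmt1, and 0 of 5 passed. A second tested probe set of Setdb1, near the filter, ran the other way. Its means were 5.05 in XX, 5.02 in XXsry, 5.17 in XY- and 4.95 in XY-sry. Ehmt1 and Ehmt2 encode GLP and G9a, partner enzymes of H3K9 monomethylation and dimethylation. Ehmt2 had 8.83, 8.72 and 8.87 in XX females, 8.87, 8.97 and 8.87 in XXsry males, 8.80, 8.79 and 8.78 in XY- females and 8.93, 8.92 and 9.03 in XY-sry males, which did not overlap within XY. Its difference was 0.133 ± 0.0399 (limma adjusted p = 0.0682), and that of Ehmt1 was 0.15 ± 0.046 (0.0746). Trim28, the corepressor of KRAB zinc finger proteins, stood at 0.11 ± 0.043 (0.131). The mean level of the markers of dividing cells ranged from 9.63 to 9.74 in XX, 9.77 to 9.84 in XXsry, 9.53 to 9.79 in XY- and 9.76 to 9.93 in XY-sry, and 1 of 13 tested, Mcm6, passed for gonadal sex at 0.20. The part of dividing cells in these differences was not tested.

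Deacetylases and remodellers included Baz1b above and 5 others that did not pass. Of the 6, 5 lay above zero for gonadal sex and 6 of 6 within XY, from 0.06 for Hdac1 and Hdac2 to 0.24 for Hells, the DNA helicase that supports DNA methylation at repeats. Hells ranged widely within groups, from 7.86 to 8.37 in XX females. Baz1a, the partner of Smarca5 in ACF complexes, gave 0.187 within XY at the probe set used (adjusted p = 0.139). A second probe set of it gave -1.23 ± 0.271 there and passed (adjusted p = 0.0190). That probe set had 5.44, 6.49 and 6.48 in XY-sry males against 7.22, 7.79 and 7.08 in XY- females, so the 2 probe sets of the gene opposed each other.

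In the PRC2 core, Ezh2, the main methyltransferase of dividing cells, stood at 0.06 for gonadal sex. The 4 core genes ranged from -0.04 for Ezh1 to 0.06, and 0 of 4 passed. The accessory genes, which steer PRC2 to its targets, did not pass at the probe sets used: Jarid2 stood at -0.12, Mtf2 at 0.07 and Phf19 at 0.115. Other probe sets of 2 of these genes did pass. One for Jarid2 had 7.52, 7.49 and 7.62 in XX females, 7.44, 7.29 and 7.36 in XXsry males, 7.56, 7.49 and 7.56 in XY- females and 7.33, 7.25 and 7.42 in XY-sry males, with no male array as high as any female array. Its difference was -0.19 ± 0.044 (limma adjusted p = 0.0278), while its other tested probe set gave 0.03. Within XY, 3 probe sets of Mtf2 passed, at 0.34 (adjusted p = 0.0185), 0.24 (0.0403) and 0.34 (0.0302), against 0.03 at the probe set used. In 21 members with more than 1 tested probe set, all of a gene's probe sets shared a sign for gonadal sex in 12. Over all 72 tested member probe sets, 3 passed for gonadal sex and 6 within XY, beside 6.56% and 8.64% of all probe sets, so the count of members called depends on which probe set stands for the gene. Which exons each probe set reads was not analysed here.

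**Figure D3:**
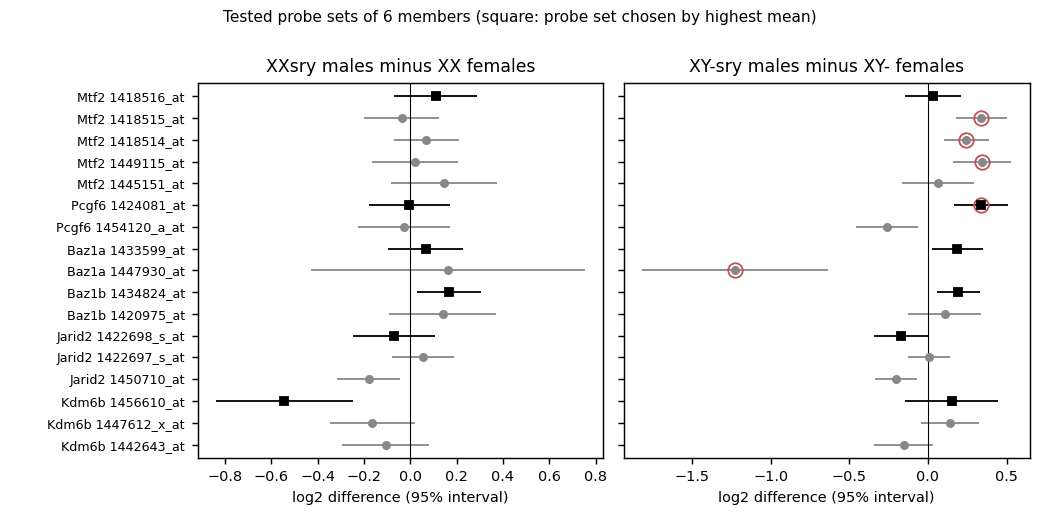
Each row is 1 tested probe set of 6 members, with its log2 difference and 95% interval, males minus females, within XX (left) and within XY (right). Squares mark the probe set used for the gene and red rings those past the threshold. Probe sets of Mtf2, Pcgf6 and Baz1a differ among themselves within XY.

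The PRC1 catalytic and PCGF genes ranged from -0.095 for Pcgf5 to 0.17 for Pcgf6 for gonadal sex, and 0 of 6 passed. The E3 ligase genes Rnf2 and Ring1 stood at -0.02 and -0.03. Among the CBX and PHC genes, which read the mark and polymerise PRC1, the range was -0.075 for Cbx8 to 0.155 for Phc3 and 0 of 6 passed. Phc3 reached 0.25 ± 0.078 within XY (limma adjusted p = 0.0656), from 7.84, 7.90 and 7.92 in XY- females and 8.25, 7.95 and 8.21 in XY-sry males, with no overlap.

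All 5 demethylases lay below zero for gonadal sex, from -0.235 for Kdm5b to -0.018 for Kdm2b, which recruits PRC1 to CpG islands. Only Kdm5b among them passed. The shared sign held within XX, where 5 lay below zero. Within XY 4 lay above zero and only 1, Kdm5b, below. Over all probe sets 57.6% lay above zero for gonadal sex, 49.7% within XX and 62.4% within XY. A further 17 demethylase genes, tested from the list of other genes described below, had a median of -0.0033 for gonadal sex. Kdm6b, which removes lysine 27 methylation, had the widest range of the members, 0.81. Its values were 9.57, 9.77 and 9.39 in XX females and 9.08, 8.96 and 9.06 in XXsry males, without overlap, and the difference was -0.54 ± 0.135 (limma adjusted p = 0.116). In XY- females they were 9.03, 9.32 and 9.09 and in XY-sry males 9.32, 9.0 and 9.57, which overlapped, at a difference of 0.15. The XX females had the highest mean, overlapped by XY-sry males alone, and the other 3 groups overlapped among themselves. Its interaction was 0.69 ± 0.191 (adjusted p = 0.114), and it passed with array weights (0.80, adjusted p = 0.0059) and without XY-sry replicate 2 (0.842, adjusted p = 0.0252). The probe sets of Kdm6b disagreed: the others gave 0.30 (adjusted p = 0.286) and -0.05 (0.910), and the mean over probe sets was 0.317. Kdm4a, a demethylase of lysines 9 and 36, had 7.34, 7.22 and 7.40 in XX females against 7.17, 7.16 and 7.11 in XXsry males. These did not overlap, and the difference of -0.17 did not pass (adjusted p = 0.210).

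Within XX, 0 of 41 members passed for gonadal sex (0.742% of all probe sets did), and 5 had an unadjusted p under 0.05, where 12.1% of all probe sets did. Of the members, 4 lay wholly higher and 4 wholly lower in XXsry, with no overlap of the 3 and 3 arrays, against 10.8% and 10.6% of all probe sets. Within XY the counts were 9 higher and 2 lower, against 18% and 9.39% of all probe sets. There 33 of 41 members lay above zero, where 62.4% of all probe sets did, and the median was 0.067 against 0.043 over all. Of the 2 members wholly lower within XY, 1 was Phc2, at 8.00 to 8.07 in XY-sry males and 8.15 to 8.19 in XY- females. The second tested probe set of Phc2 was wholly higher, at 8.13 to 8.21 in XY-sry males and 8.06 to 8.11 in XY- females.

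For the sex chromosome complement, XX minus XY averaged over gonadal sex, 0 of 41 members passed (limma; 0.0893% of all probe sets passed), and 3 had an unadjusted p under 0.05 (4.25% of all). In 0 of 41 members did all 6 XX arrays lie above or below all 6 XY arrays, against 0.128% and 0.0391% of all probe sets. The 3 with an unadjusted p under 0.05 were Bmi1, a core PRC1 subunit, at 0.11 ± 0.047, Phc1 at -0.088 ± 0.036 and Phc2 at 0.078 ± 0.033, each with an adjusted p of 0.998. Phc1 values were 7.47, 7.49 and 7.47 in XX females, 7.50, 7.56 and 7.50 in XXsry males, 7.62, 7.50 and 7.49 in XY- females and 7.68, 7.62 and 7.61 in XY-sry males. The XXsry males lay below the XY-sry males, and the female groups met at 7.49. Pcgf6 stood at 0.11 and Phf19 at -0.088, and Ehmt1 at -0.053, also without passing. The 95% interval lay within 0.5 of zero for 41 of 41 members and within 0.25 for 39, where 99% and 84.6% of all probe sets met these bounds. The members' median was 0.0033 against 0.0067 over all probe sets. Smchd1, which keeps the inactive X chromosome silent, differed by -0.03. It stood at 0.04 within females, where the groups overlapped, and at -0.10 within males (limma adjusted p = 0.729). There the XXsry males, at 8.65 to 8.77, lay below the XY-sry males, at 8.79 to 8.82. Of all probe sets, 7.43% lay wholly lower in that comparison.

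Within females 0 of 41 passed for the complement (0.0781% of all probe sets), and within males 0 of 41 passed (0.128%). In females 4 members were higher in XX with no overlap and 1 was lower, against 8.86% and 4.55% of all probe sets. The highest was Kdm6b at 0.43 (adjusted p = 0.318) and Pcgf6 followed at 0.28 (0.289), and the lower one was Kdm5b at -0.15 (0.480). The second tested probe set of Pcgf6 had means of 5.47 in XX and 5.46 in XY- females. The other tested probe sets of Kdm6b had 7.08 against 6.86 and, the other way, 6.03 against 6.12. In males 2 members were higher and 3 lower without overlap, against 6.74% and 7.43% of all probe sets. An unadjusted p under 0.05 was reached by 4 members in females and 4 in males, where 10.6% and 8.55% of all probe sets reached it. Kdm5b was the highest at 0.21 (0.329), and Phc2 stood at 0.15 (0.304), where its second tested probe set gave 0.01 (0.988).

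**Figure D4:**
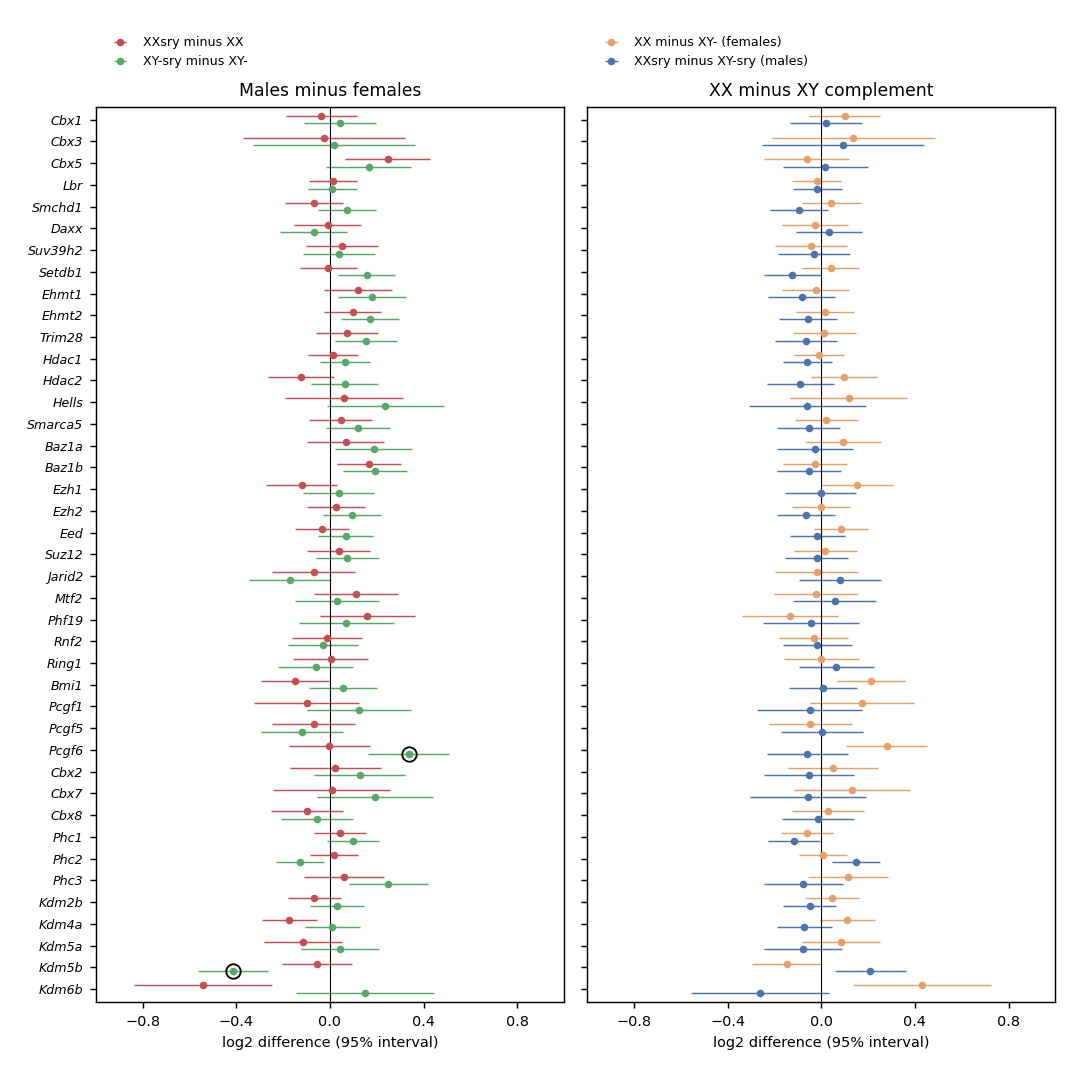
Points give the log2 difference of each member and lines its 95% interval, for males minus females within each complement (left) and for XX minus XY within each gonadal sex (right). Open rings mark the 2 values past the threshold, both within XY: Pcgf6 at 0.34 and Kdm5b at -0.41. Most intervals cross zero.

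The interaction asks whether the complement effect differs between females and males (female value minus male value). It gave 0 of 41 members past the threshold (limma; 1.29% of all probe sets, and 0.00558% with the actin covariate), with 5 at an unadjusted p under 0.05 (13.4% of all). The 5 were Kdm6b, Kdm5b, Pcgf6, Kdm4a at 0.18 ± 0.076 (adjusted p = 0.318) and Bmi1 at 0.21 (0.369). Phc2, which stood at -0.14 (0.379) but at 0.03 on its second tested probe set, and Jarid2, at -0.10, followed on the lower side. The interval lay within 0.5 of zero for 34 of 41 members, where 78.3% of all probe sets met this bound, and past it for 7.

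Other genes of the same complexes were counted from a list of 105, of which 97 had a probe set and 83 were tested. For gonadal sex 7 of 83 were higher in males and 0 were lower, beside the 6.56% of all probe sets that passed. Chaf1b, a subunit of the histone chaperone CAF-1, differed by 0.29 ± 0.057 (limma adjusted p = 0.0152). The NuRD subunits Mta1 and Gatad2a differed by 0.17 and 0.14 (0.0495 and 0.0309). Cbx6 and Scmh1 of PRC1 stood at 0.175 (0.0278) and 0.17 (0.0194), and Hcfc1 and Mbd6 of the Polycomb deubiquitinase at 0.18 (0.0191 and 0.0339). Mta1, Gatad2a, Cbx6, Scmh1 and Hcfc1 did not overlap between the sexes, while Chaf1b and Mbd6 did. Over all probe sets 2.28% lay wholly higher in males. Within XY, 6 were higher, Chaf1b at 0.37, Foxk1 at 0.34, Mta1 at 0.24, Tfdp1 and Scmh1 at 0.23 and Hcfc1 at 0.22, and 2 were lower, Rsf1 at -0.44 and Skp1 at -0.28, where 8.64% of all probe sets passed. For the complement 2 were higher in XX, both X-linked demethylase genes. Kdm6a, which removes lysine 27 methylation, had group means of 7.96 in XX, 7.85 in XXsry, 7.18 in XY- and 7.21 in XY-sry, a difference of 0.71 ± 0.071 (adjusted p = 0.00061). Kdm5c, a relative of Kdm5b, differed by 0.36 ± 0.049 (0.0119), with no overlap between the complements for either gene. The autosomal relatives Kdm6b, Kdm5a and Kdm5b differed by 0.083, 0.0033 and 0.03 for the complement and did not pass. The counts moved with the processing: for gonadal sex they lay between 2 and 9 with 1 array left out, moving by over 1.5 times for 8 of the 12 arrays. They were 1 with no filter, and within XY they were 0 with the actin covariate. The share of all probe sets called moved too, to 2.91% to 9.73%, 1.54% and 0.301% in these fits.

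The spread of the members bounds what these arrays could show. The median within-group standard deviation was 0.0819 for the members, from 0.0338 for Phc2 to 0.227 for Cbx3, and 0.0972 over all probe sets. Cbx3 was read from its 1 probe set that names no other gene, near the filter at a mean of 5.07, and 4 probe sets that name several genes were not used. The range over the 12 arrays was under 0.25 for 10 members and at least 0.5 for 6. With 3 arrays in each group, the 41 members' differences within 1 complement had a median standard error of 0.0688, against 0.0487 for gonadal sex overall.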

How the data were processed

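The authors deposited log2 values, 1 per probe set, made with RMA per the submitters' processing notes (version not given in the sources consulted). The table held 45101 probe sets, 64 of them controls, and 17925 non-control probe sets averaging 5 or more on the log2 scale were tested. The platform gene table named 34945 by 1 gene, 932 by several and 9160 by none, and 34741 matched RefSeq genes of GRCm38.p6. Each gene was read from its probe set with the highest mean. Group means were fitted to all 17925 in R 4.3.3 with limma 3.58.1 (8 residual and 3.71 prior degrees of freedom), with Benjamini-Hochberg adjustment over all of them and a threshold of 0.05. The number of arrays limits precision. In simulated data with 200 of 17925 probe sets changed by 0.5, 91.5% were recovered for gonadal sex (19 of 202 calls false) and 73% within XY (7 of 153). At 0.25 these shares were 46.5% and 0%. That setting differed from the arrays, where 6.56% and 8.64% of all probe sets passed, and its noise was drawn independently for each probe set. The adjusted threshold depends on how many probe sets change, so these shares do not carry over to the members.

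Named genes were the members past the threshold, the 3 smallest p in each direction for gonadal sex, complement and interaction, the highest-level member of each role group, members whose probe sets disagreed, and at most 8 partners per contrast. Other members were named after their values were seen. The members and lists were chosen with earlier results of these data known. Alternatives were the filter, median centring, quantile normalization, trend and robust settings, array weights, only the groups compared, the replicate block, the actin covariate, the mean over probe sets and each array left out. Figures were drawn with matplotlib 3.10.9.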

Additional observations from a re-analysis of the deposited data

Results flagged for a closer look

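Kdm5b drew attention because the complement effect ran in opposite directions in the 2 gonadal sexes. In females every XX array lay below every XY- array (difference -0.15), and in males every XXsry array lay above every XY-sry array (0.21). The test of the difference between these effects gave -0.36 ± 0.097 and did not pass (limma adjusted p = 0.111). It passed in 1 of 21 alternatives, with array weights (adjusted p = 0.0339). No test for samples that stand apart was run within groups of 3 arrays. XY- replicate 2, whose standard deviation around its group's means was the widest at 0.162, held the highest Kdm5b value, 7.41.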

How the results depend on the processing

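Of the 7 contrasts, the complement overall and the complement within males kept 0 members called in every alternative run. For gonadal sex and within XY the counts of 2 became 1 with no filter and with the mean over probe sets. They became 5 and 4 with trend and robust settings and 8 and 9 with array weights. With 1 array left out they were 1 to 4 and 1 to 3. Within XY the count became 6 with median centring, and 0 with only the groups compared and with the actin covariate. Within XX it became 3 with array weights and 1 with only the groups compared. For the interaction it became 2 with array weights and 0 to 1 with 1 array left out, and for the complement within females it became 3 with array weights. The share called over all probe sets moved too. From 6.56% for gonadal sex and 8.64% within XY, it went to 1.54% and 2.77% with no filter. It was 8.19% and 9.48% with the mean over probe sets, and 7.9% and 10.2% with trend and robust settings. Array weights gave 24.3% and 23.7%. Within XY the share was 10.9% with median centring, 0.402% with only the groups compared and 0.301% with the actin covariate. With array weights it was 7.36% within XX, 7.1% for the interaction and 8.24% for the complement within females, and with only the groups compared 1.21% within XX. With 1 array left out it was 2.91% to 9.73% for gonadal sex, 3.01% to 8.51% within XY and 0% to 2.52% for the interaction. The causes were not tested. Of the 20 gene results rerun under the alternatives, 0 reversed. Other genes named above, Baz1a among them, were not rerun one by one, and the probe sets of Baz1a opposed each other within XY.

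The members' median moved to 0.0482 for the complement within females with the actin covariate, to 0.103 within XY and 0.12 for the interaction with median centring, and to 0.104 for the interaction with the actin covariate. With 1 array left out it ranged from -0.0633 to -0.0167 for the complement within males, 0.0167 to 0.0442 for gonadal sex and 0.0383 to 0.095 for the interaction.

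The partner alternatives were added after the data were seen. Partners called for gonadal sex numbered 7, and became 1 with no filter, 20 with array weights, 2 with the actin covariate and 2 to 9 with 1 array left out. Within XY the 8 became 1 with no filter, 25 with array weights, 0 with only the groups compared, 0 with the actin covariate, 14 with the mean over probe sets and 1 to 8 with 1 array left out. For the complement the 2 became 4 with no filter and 1 to 2 with 1 array left out. Over all probe sets the complement's share was 0.0577% with no filter and 0.0725% to 0.117% with 1 array left out. For gonadal sex the share was 4.83% with the actin covariate, and the other shares are given above.

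The main fit treated same-numbered samples as unpaired. Of 6 correlations of their deviations for each number, 3, 4 and 1 exceeded 0.1 for replicates 1, 2 and 3. They ranged from -0.083 to 0.129, 0.025 to 0.306 and -0.059 to 0.292. Differently numbered samples were not set beside them, so these values do not settle whether samples were paired. The replicate block gave 3 members for gonadal sex, 3 within XY, 0 in the other contrasts, and 8, 9 and 2 partners for gonadal sex, XY and the complement. Over all probe sets the share called with this block was 7.35% for gonadal sex, 9.02% within XY and 0.1% for the complement. It was 2.1% for the interaction, 0.658% within XX, and 0.139% and 0.669% for the complement within females and within males.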
